A study of Mus musculus with 2 samples.

Results

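Ptgr1, Ipp, Uchl1, Cthrc1, C1ql1 and Gmpr encode enzymes, secreted proteins and a cytoskeletal adaptor, none of them a transcriptional regulator, and their transcripts were plentiful in fetal male germ cells of the mouse at E13.5 and scarce at E12.5. These 6 genes, of 17244 listed in either table, were chosen by name, selected on the ratio of their UMI levels in germ cells of E13.5 over E12.5. All 6 were listed for both stages. Their levels are therefore given as a description, and their spread among cells, their promoters and their pathways are the subject here. Links with other genes that differ between the stages are not independent of that choice. Germ cells were sorted by FACS for an Oct4-GFP reporter from male CD1 embryos, an outbred strain, at E13.5 and at E12.5, and each stage gave 1 droplet library prepared with 10x v2 chemistry. Both groups carry the reporter, no mutation or treatment is named in the labels, and the number of embryos pooled and the reporter line are not stated in them. A single library of each stage leaves nothing to test: a difference between stages cannot be told apart from one between libraries, and every interval below covers counting error alone.

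Around these stages male germ cells of the mouse begin to stop dividing and to enter a quiet state, and the RNA-binding protein Nanos2 takes them along the male pathway. Rhox9, an X-linked homeobox gene, is typical of the earlier state. The genes described here have unrelated roles. Uchl1 (PGP9.5) is a ubiquitin hydrolase abundant in neurons and used as a marker of spermatogonia, Ptgr1 is a reductase that inactivates leukotriene B4 and oxidised prostaglandins, and Gmpr converts GMP back to IMP and so links the guanine and adenine nucleotide pools. Cthrc1 and C1ql1 are secreted proteins with collagen-like repeats, the first acting with Wnt proteins in planar cell polarity and the second organising synapses in the mouse brain through the receptor Adgrb3. Ipp is a kelch-repeat protein that binds actin, named for a placental transcript that starts within an endogenous retrovirus, the intracisternal A-particle.

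In GRCm38 all 6 are protein-coding genes in the GENCODE vM21 annotation, and they are scattered over 5 chromosomes. Ptgr1 (58965439 to 58987119, minus strand) and Ipp (116507549 to 116538243, plus strand) both lie on chromosome 4, far apart. Uchl1 lies on chromosome 5 (66676091 to 66687234, plus strand), Cthrc1 on chromosome 15 (39076932 to 39087121, plus strand), C1ql1 on chromosome 11 (102939264 to 102946688, minus strand) and Gmpr on chromosome 13 (45507444 to 45553800, plus strand). Gmpr overlaps Atxn1 on the other strand, which had 3 UMIs in E13.5 germ cells and 2 in E12.5 germ cells. C1ql1 overlaps the long noncoding RNA Gm26668 on the other strand, which had 5 and 7 UMIs, so neither neighbour held more than a trace beside these genes. The sources used here do not say whether the counting used strand, and Uchl1 also overlaps an antisense gene, Uchl1os, with no row in either table.

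Promoter windows from RefSeq (GRCm38.p6), from 250 bases before to 50 bases after the start of the gene, were matched for 4 of the 6. They are shown because genes that are high together can be compared for shared letters at their starts. The motifs searched on both strands were GGGCGG (the GC box), CACGTG (an E-box), CCAAT (the CCAAT box), TATAAA (the TATA box), TCCCGC (an E2F-type core) and TGACNNNGC (the core of the antioxidant response element), and capitals mark every match; in Gmpr a TCCCGC match on the minus strand overlaps a GGGCGG match. The windows lie at chr4:58987029-58987328 on the minus strand for Ptgr1, chr4:116507299-116507598 on the plus strand for Ipp, chr5:66675871-66676170 on the plus strand for Uchl1 and chr13:45507194-45507493 on the plus strand for Gmpr.
Ptgr1: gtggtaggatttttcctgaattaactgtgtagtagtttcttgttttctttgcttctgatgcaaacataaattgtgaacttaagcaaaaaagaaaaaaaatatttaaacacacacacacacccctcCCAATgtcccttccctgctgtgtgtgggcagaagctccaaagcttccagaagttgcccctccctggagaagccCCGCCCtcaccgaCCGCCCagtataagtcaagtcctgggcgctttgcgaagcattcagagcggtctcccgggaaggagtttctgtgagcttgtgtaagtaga
Ipp: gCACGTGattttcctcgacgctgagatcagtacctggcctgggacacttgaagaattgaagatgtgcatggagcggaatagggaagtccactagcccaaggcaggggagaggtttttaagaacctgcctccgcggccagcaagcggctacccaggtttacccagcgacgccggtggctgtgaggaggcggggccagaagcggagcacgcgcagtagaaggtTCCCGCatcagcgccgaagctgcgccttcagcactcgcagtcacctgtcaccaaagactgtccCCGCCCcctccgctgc
Uchl1: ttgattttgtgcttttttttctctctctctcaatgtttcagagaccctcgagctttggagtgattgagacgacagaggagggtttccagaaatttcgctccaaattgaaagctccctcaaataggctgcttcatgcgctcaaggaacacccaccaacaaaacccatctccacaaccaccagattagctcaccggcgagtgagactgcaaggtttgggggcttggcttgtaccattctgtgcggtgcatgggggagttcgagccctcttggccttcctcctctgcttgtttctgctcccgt
Gmpr: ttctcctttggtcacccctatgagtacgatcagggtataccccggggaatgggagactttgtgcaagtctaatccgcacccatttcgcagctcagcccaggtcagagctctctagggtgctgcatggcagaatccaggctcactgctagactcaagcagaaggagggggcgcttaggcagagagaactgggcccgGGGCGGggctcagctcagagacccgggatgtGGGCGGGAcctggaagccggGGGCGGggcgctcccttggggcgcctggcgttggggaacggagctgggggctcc
No motif was matched in all 4 windows, and GGGCGG was matched in the most. So few windows cannot show whether a motif is more frequent in them than in all windows. GGGCGG was matched 2 times in Ptgr1, once in Ipp and 3 times in Gmpr, and it is held by 35.7% of the 32851 windows in the table. Uchl1 had no match to any of the 6 motifs. CACGTG was matched in Ipp alone and is held by 7.15% of all windows, CCAAT was matched in Ptgr1 alone and is held by 37.4%, and TCCCGC was matched in Ipp and Gmpr and is held by 19.98%. The TATA box and the antioxidant core, held by 13.6% and 12.4% of all windows, were matched in none. The windows held 7 CpG dinucleotides in Ptgr1, 21 in Ipp, 9 in Uchl1 and 15 in Gmpr, against a median of 7 over all windows.

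Germ-like cells, named from clusters by 12 germ markers, numbered 2611 at E13.5 and 2529 at E12.5, with 58771934 and 59762537 UMIs in sum. Their median depth was 21641 UMIs per cell at E13.5 and 23415 at E12.5. All 12 germ markers stood at 10 CPM (UMIs per 1000000 UMIs of the summed germ-like cells) or more in both libraries, with a summed level of 8505 CPM at E13.5 and 7319 CPM at E12.5. Sertoli markers summed to 13.51 CPM at E13.5 and 11.5 CPM at E12.5, with none of 10 at 0. Endothelial markers summed to 36.9 and 96.9 CPM with none of 5 at 0, and markers of red blood cells to 23.2 and 0.284 CPM, with 0 of 9 at 0 in the E13.5 library and 6 at 0 in the E12.5 library; the part of the last 2 lists in the results was not tested. The tables shared 24 barcode sequences, 0.802% of the E13.5 table and 0.843% of the E12.5 table, and results without them are given with the alternatives.

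At E13.5 Uchl1 was the most abundant of the 6. Uchl1 had 13798 UMIs or 235 CPM at E13.5 (counting interval 231 to 239), against 2089 UMIs or 35.0 CPM at E12.5 (33.5 to 36.5), a ratio of 6.72 (6.41 to 7.04). Ptgr1 had 3756 UMIs or 63.9 CPM at E13.5 (61.9 to 66.0), against 183 UMIs or 3.06 CPM at E12.5 (2.63 to 3.54), a ratio of 20.9 (18.0 to 24.3). Gmpr had 2797 UMIs or 47.6 CPM at E13.5 (45.8 to 49.4), against 449 UMIs or 7.51 CPM at E12.5 (6.83 to 8.24), a ratio of 6.33 (5.73 to 7.01). Ptgr1 thus had the highest ratio, and both enzymes of small molecules were below 10 CPM in the earlier library.

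Ipp had 3867 UMIs or 65.8 CPM at E13.5 (63.7 to 67.9), against 410 UMIs or 6.86 CPM at E12.5 (6.21 to 7.56), a ratio of 9.59 (8.66 to 10.6). The secreted proteins were close to each other in ratio. Cthrc1 had 4177 UMIs or 71.1 CPM at E13.5 (68.9 to 73.3), against 853 UMIs or 14.3 CPM at E12.5 (13.3 to 15.3), a ratio of 4.98 (4.62 to 5.37). C1ql1 had 3379 UMIs or 57.5 CPM at E13.5 (55.6 to 59.5), against 704 UMIs or 11.8 CPM at E12.5 (10.9 to 12.7), a ratio of 4.88 (4.50 to 5.30). None of the 6 pairs of intervals overlapped between the libraries, a consequence of how the genes were taken. The share of all genes with such a gap is not given here, so nothing is read from it.

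A 3' assay counts 1 end of each molecule, so CPM can be set side by side between genes without a division by length. At E13.5 the order from high to low was Uchl1, Cthrc1, Ipp, Ptgr1, C1ql1 and Gmpr, and the intervals of Ipp and Ptgr1 overlapped. At E12.5 the order was Uchl1, Cthrc1, C1ql1, Gmpr, Ipp and Ptgr1, and the intervals of Gmpr and Ipp overlapped. Ptgr1 was thus the scarcest in the earlier library and stood within the counting error of Ipp in the later one.

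The choice of these genes sets their place among all genes. All 6 were at least 1.5-fold higher at E13.5. Among the 7307 genes that reached 10 CPM at either stage 8.57% were, and nothing is read from that share because the genes were taken for it. The median log2 ratio of the 6 was 2.71 and that of the 7307 genes was -0.02. Among the 2883 genes at 50 CPM or more, Ptgr1, Ipp, Uchl1, Cthrc1 and C1ql1 held ranks 1, 4, 6, 7 and 8 by ratio. Between them stood the predicted gene Gm10320, the zinc finger gene Bnc2 and the synaptonemal complex gene Sycp1, and the next gene after C1ql1 (4.88) was Zmym3 with a ratio of 4.70. Gmpr, at 47.6 CPM, lay just under that level and had rank 41 among the 7307.

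To ask how many cells carried each transcript, every germ-like cell was thinned to 14000 UMIs, which kept 2359 cells at E13.5 (252 left out) and 2342 at E12.5 (187 left out). Uchl1 was seen in 88.4% of cells at E13.5 (exact binomial interval 87.0 to 89.7%), against 35.4% at E12.5 (33.4 to 37.3%). Ptgr1 was seen in 51.5% of cells at E13.5 (49.5 to 53.6%), against 3.84% at E12.5 (3.10 to 4.70%). Ipp was seen in 51.9% (49.9 to 54.0%) at E13.5, against 9.78% (8.60 to 11.1%) at E12.5. Ptgr1, in 90 of 2342 cells at E12.5, was thus seen in about as many cells as Ipp at E13.5.

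Cthrc1 was seen in 61.2% of cells at E13.5 (59.2 to 63.1%), against 16.8% at E12.5 (15.3 to 18.4%). C1ql1 was seen in 50.5% (48.4 to 52.5%) at E13.5, against 14.3% (13.0 to 15.8%) at E12.5. Gmpr was seen in 41.9% (39.9 to 43.9%) at E13.5, against 9.61% (8.44 to 10.9%) at E12.5. The cells that carried a transcript also carried more of it at E13.5. The mean UMIs per carrying cell were 3.72 at E13.5 and 1.39 at E12.5 for Uchl1, and 1.79 and 1.03 for Ptgr1. For the other 4 genes they ran between 1.61 and 1.74 at E13.5 and between 1.07 and 1.16 at E12.5. Without thinning the shares at E13.5 and E12.5 were 91.3% and 48.5% for Uchl1, 61.8% and 7.04% for Ptgr1, 63.5% and 14.6% for Ipp, 73.8% and 26.6% for Cthrc1, 62.2% and 21.6% for C1ql1, and 53.1% and 15.7% for Gmpr.

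**Figure D1:**
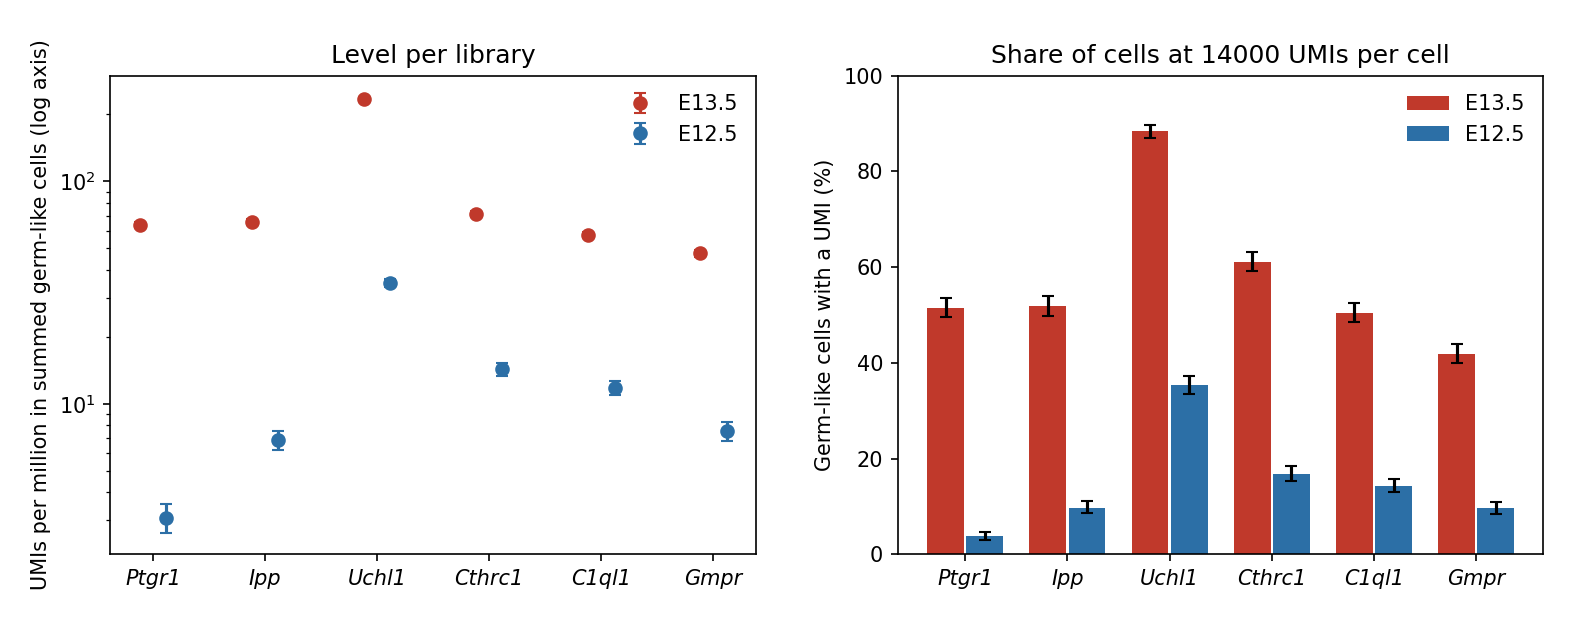
Left, CPM in summed germ-like cells for each gene in the E13.5 library (red) and the E12.5 library (blue) on a log axis, with 95% Poisson counting intervals; right, the percent of germ-like cells with a UMI at 14000 UMIs per cell, with 95% exact binomial intervals. Every red value lies above its blue partner, and on the log axis the gap is widest for Ptgr1, at 63.9 and 3.06 CPM.

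UMIs of 5 of the 6 genes were spread unevenly among E13.5 cells. The variance over the mean of UMIs per thinned cell, which is near 1 for even counting, was 1.95 for Uchl1, 1.57 for Ptgr1, 1.53 for Gmpr, 1.44 for Ipp and 1.35 for C1ql1. The median of 6605 genes between 10 and 500 CPM was 1.05 and the 95th percentile 1.23. Cthrc1, at 1.09, lay at percentile 75.8 of those genes, whereas the others lay between percentile 97.4 and 99.5. At E12.5 the values were 1.24 for Uchl1, 1.13 for C1ql1, 1.11 for Cthrc1, 1.05 for Gmpr, 1.03 for Ipp and 1.03 for Ptgr1, against a median of 1.04, and only Uchl1 passed the 95th percentile of 1.18. Cthrc1 was the one gene of the 6 with a lower value at E13.5 than at E12.5. The value grows with level for any transcript that varies between cells, and levels differed between the libraries.

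**Figure D2:**
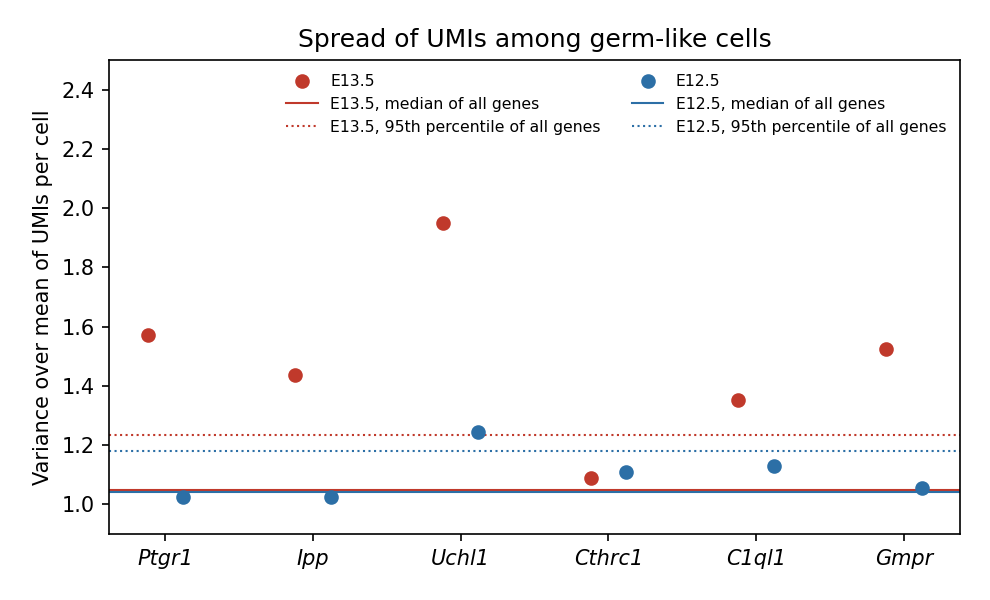
Variance over mean of UMIs per cell at 14000 UMIs for each gene among E13.5 cells (red) and E12.5 cells (blue), with the median (solid line) and 95th percentile (dotted line) of all genes between 10 and 500 CPM in each library. At E13.5 all genes but Cthrc1 (1.09) lie above the dotted red line at 1.23, and at E12.5 only Uchl1 (1.24) lies above the dotted blue line at 1.18.

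The order in which the transcripts appear can be read from these stages only as the part of the E13.5 level already present at E12.5. That part was 4.79% for Ptgr1 (counting interval 4.11 to 5.56%) and 10.4% for Ipp (9.39 to 11.5%). It was 14.9% for Uchl1 (14.2 to 15.6%) and 15.8% for Gmpr (14.3 to 17.4%), whose intervals overlapped. It was 20.1% for Cthrc1 (18.6 to 21.6%) and 20.5% for C1ql1 (18.9 to 22.2%), whose intervals also overlapped. By these values the order, from the least to the most present at E12.5, was Ptgr1, then Ipp, then Uchl1 and Gmpr, then the secreted proteins. For Nanos2, the male pathway marker, the part was 1.30% (0.790 to 2.01%), below that of each of the 6, and for Sycp1 it was 14.2%. By shares of cells the order was the same but for Uchl1, whose E12.5 share was the largest of the 6 as a part of its E13.5 share, although its gap in percentage points was the widest. The order rests on low E12.5 levels, which 4 Sertoli-like cells in that library hardly bound against free RNA, as described with those cells.

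Cells of the libraries differed in how many of the 6 transcripts they carried at once. The mean was 3.45 genes per cell at E13.5 and 0.898 at E12.5. At E13.5, 36 of 2359 cells carried none (1.53%) and 158 carried all 6 (6.70%), whereas at E12.5, 892 of 2342 cells carried none (38.1%). No E12.5 cell carried 5 or 6, for which the exact interval reaches 0.157%, and 14 cells carried 4. Among the 189 E13.5 cells with a single one of the 6 transcripts, Uchl1 was that transcript in 57.7%, Cthrc1 in 14.3%, Ipp in 10.6%, C1ql1 in 8.47%, Ptgr1 in 6.35% and Gmpr in 2.65%. Among the 922 such E12.5 cells it was Uchl1 in 46.9%, Cthrc1 in 16.7%, C1ql1 in 13.7%, Ipp in 9.76%, Gmpr in 9.44% and Ptgr1 in 3.58%. These orders are close to those of the levels, in which Ptgr1 stands before C1ql1 at E13.5 and Gmpr before Ipp at E12.5.

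E13.5 cells with more of the 6 transcripts more often carried Nanos2 and less often carried Rhox9. Nanos2 was seen in 2.78% of E13.5 cells with none of the 6 (0.0703 to 14.5%), in 5.29% with 1, 13.0% with 2, 20.2% with 3, 30.9% with 4, 39.4% with 5 and 47.5% with all 6 (39.5 to 55.6%). Rhox9 was seen in 94.4%, 61.9%, 50.9%, 31.3%, 21.3%, 10.7% and 7.59% of the same sets. Mki67, a marker of dividing cells, was seen in 77.8% of cells with none and in 35.4% of cells with all 6, and Sycp1 in 44.4% and 94.9%. All cells were at 14000 UMIs, so these shares were taken at equal depth.

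**Figure D3:**
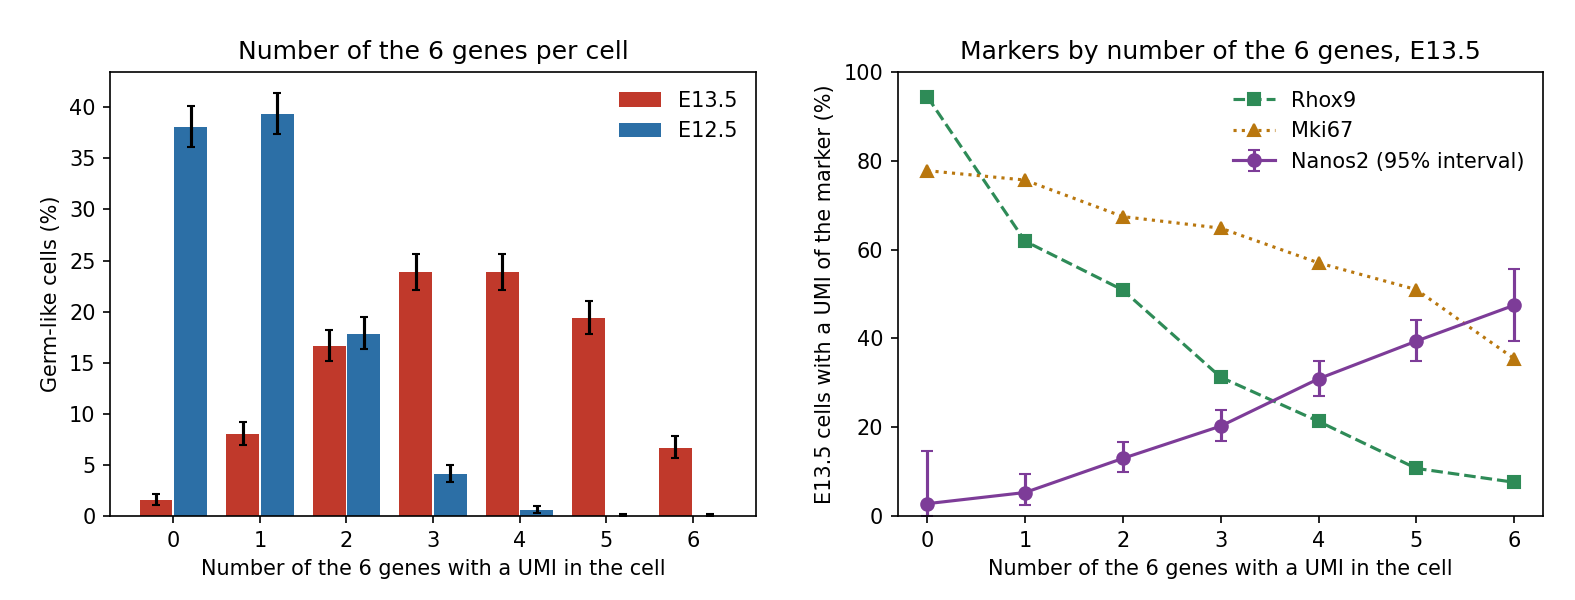
Left, percent of germ-like cells at E13.5 (red) and E12.5 (blue) by the number of the 6 genes with a UMI in the cell at 14000 UMIs, with 95% exact binomial intervals. Right, percent of E13.5 cells in each of those sets with a UMI of Nanos2, Rhox9 or Mki67. Nanos2 goes up to 47.5% in cells with all 6 genes while Rhox9 goes down to 7.59% and Mki67 to 35.4%.

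Splitting the E13.5 cells by Nanos2 put every one of the 6 genes higher in cells with a Nanos2 UMI (605 cells) than in cells without one (1754 cells). Gmpr was seen in 56.4% of cells with Nanos2 (52.3 to 60.4%), against 36.9% without (34.7 to 39.3%), with 72.4 and 40.03 CPM in the summed thinned cells. Ptgr1 was seen in 65.0% with Nanos2 (61.0 to 68.8%), against 46.9% without (44.6 to 49.3%), with 96.9 and 55.4 CPM. A second random thinning to the same depth gave 69.7% and 45.0% for Ptgr1. The first of these lies outside the interval above, which does not cover the random draw. C1ql1 was seen in 65.3% with Nanos2 (61.3 to 69.1%), against 45.4% without (43.0 to 47.7%), with 85.0 and 49.6 CPM. None of the 3 printed pairs of intervals overlapped. They cover counting error alone, and the share of all genes with such a gap is not given here.

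Ipp was seen in 63.6% of cells with Nanos2 (59.7 to 67.5%), against 47.9% without (45.5 to 50.3%), with 88.2 and 56.6 CPM. Uchl1 was seen in 94.5% with Nanos2 (92.4 to 96.2%), against 86.3% without (84.6 to 87.8%), with 301 and 212 CPM. Cthrc1 was seen in 68.4% with Nanos2 (64.6 to 72.1%), against 58.7% without (56.3 to 61.0%), with 81.9 and 67.2 CPM. The ratio of level, with over without Nanos2, was 1.81 for Gmpr (1.63 to 2.002), 1.75 for Ptgr1 (1.602 to 1.91), 1.71 for C1ql1 (1.56 to 1.88), 1.56 for Ipp (1.42 to 1.71), 1.42 for Uchl1 (1.35 to 1.49) and 1.22 for Cthrc1 (1.11 to 1.33). Among the 7121 genes that reached 10 CPM in a set, 2.54% were at least 1.5-fold higher in cells with Nanos2, and 4 of the 6 genes were. By this ratio Gmpr had rank 45, Ptgr1 57, C1ql1 68, Ipp 133, Uchl1 262 and Cthrc1 810. The median log2 ratio was 0.71 for the 6 and -0.01 for all genes. All of these cells came from 1 library. Nanos2 was itself higher at E13.5 (ratio 77.1 over E12.5), and the 6 genes were chosen for the same trait. Their standing among all genes therefore cannot separate a link with Nanos2 from that choice. Other genes with such a rise were not compared. The splits below share this limit, as Rhox9, Sycp1 and Mki67 also differed between the stages (ratios 0.0954, 7.03 and 0.547).

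Read from the other side, Nanos2 was seen in 34.5% of E13.5 cells with Gmpr and 19.3% of those without, in 32.3% with Ptgr1 and 18.5% without, and in 33.2% with C1ql1 and 18.0% without. It was seen in 31.4% of cells with Ipp and 19.4% without, in 28.7% with Cthrc1 and 20.9% without, and in 27.4% with Uchl1 and 12.04% without. Cells with both Gmpr and Nanos2 numbered 341, against 254 if the transcripts were spread independently, and cells with both Cthrc1 and Nanos2 numbered 414, against 370. None of the 6 was confined to Nanos2 cells: 823 of the 1216 cells with Ptgr1 had no Nanos2 UMI at this depth. Nanos2 was seen in 25.6% of cells at 14000 UMIs and 33.8% without thinning, with a mean of 1.46 UMIs per carrying cell, so a cell with no UMI may still hold the transcript.

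The gradation continued with the number of Nanos2 UMIs for most of the genes. Ptgr1 was seen in 46.9% of the 1754 cells with no Nanos2 UMI, 59.6% of the 411 with 1 and 76.3% of the 194 with 2 or more. Gmpr was seen in 36.9%, 54.3% and 60.8% of these sets, and C1ql1 in 45.4%, 62.3% and 71.6%. Ipp was seen in 47.9%, 61.1% and 69.1%, and Uchl1 in 86.3%, 93.4% and 96.9%. Cthrc1 alone did not follow, with 58.7%, 70.3% and 64.4%, and its intervals at 1 (65.6 to 74.7%) and at 2 or more (57.3 to 71.2%) overlapped. Those at 1 and at 2 or more also overlapped for the other genes except Ptgr1 (54.7 to 64.4% and 69.7 to 82.1%).

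**Figure D4:**
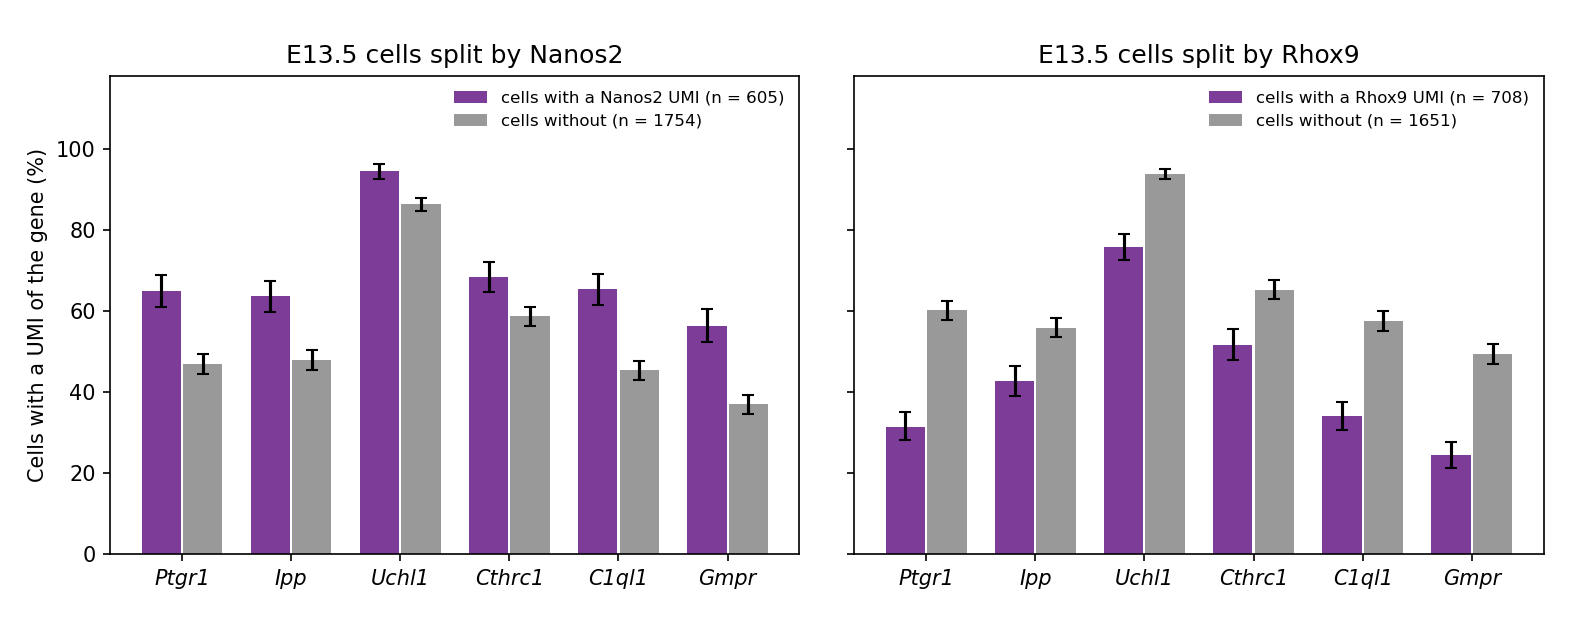
Percent of E13.5 germ-like cells with a UMI of each gene, in cells with (purple) and without (grey) a UMI of Nanos2 at left and of Rhox9 at right, at 14000 UMIs per cell with 95% exact binomial intervals. All 6 genes are seen more often with Nanos2, such as Gmpr at 56.4% against 36.9%, and less often with Rhox9, such as Gmpr at 24.4% against 49.4%.

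The split by Rhox9 ran the other way. The ratio of level in the 708 E13.5 cells with a Rhox9 UMI over the 1651 without was 0.391 for Gmpr (0.338 to 0.450), 0.427 for Ptgr1 (0.380 to 0.480), 0.521 for C1ql1 (0.463 to 0.585), 0.550 for Uchl1 (0.519 to 0.582), 0.687 for Ipp (0.619 to 0.760) and 0.711 for Cthrc1 (0.645 to 0.783). At least 1.5-fold lower were 4 of the 6 and 3.05% of 7115 genes, and at least 1.5-fold higher were none of the 6 and 3.13% of the genes. Ptgr1 was seen in 31.5% of cells that kept Rhox9 (28.1 to 35.1%), against 60.1% of those without it (57.7 to 62.5%). Ipp was seen in 42.7% (39.0 to 46.4%), against 55.9% (53.5 to 58.3%). Ipp, with the second highest ratio between the libraries, was thus among the pair of genes least tied to Rhox9 within the E13.5 library, and Gmpr and Ptgr1 were the most.

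Sycp1 and Mki67 were used in the same way. With a Sycp1 UMI (1880 cells) over without (479 cells) the ratio was 2.24 for Ptgr1 (1.95 to 2.58), 1.93 for Gmpr (1.66 to 2.26), 1.72 for both Ipp (1.52 to 1.96) and C1ql1 (1.51 to 1.97), 1.67 for Uchl1 (1.56 to 1.79) and 1.29 for Cthrc1 (1.15 to 1.44), so that 5 of the 6 were at least 1.5-fold higher, against 2.42% of 7079 genes, and none was at least 1.5-fold lower, against 2.2%. With a Mki67 UMI (1411 cells) over without (948 cells) the ratio was 0.525 for Gmpr (0.475 to 0.580), 0.580 for Ptgr1 (0.533 to 0.632), 0.717 for C1ql1 (0.655 to 0.785), 0.780 for Uchl1 (0.746 to 0.816) and 0.875 for Ipp (0.802 to 0.954). At least 1.5-fold lower in cells with Mki67 were 2 of the 6, against 2.05% of 7108 genes, and none was at least 1.5-fold higher, against 2.7%. For Cthrc1 it was 0.985 (0.906 to 1.07), an interval that includes 1. Gmpr and Ptgr1 thus had the lowest ratios of cells with Mki67 over cells without it, and Cthrc1 was level between those sets.

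Nanos2 and Mki67 were themselves linked, so their sets were crossed. Mki67 was seen in 66.7% of cells with no Nanos2 UMI, 44.3% with 1 and 30.4% with 2 or more. Among the E13.5 cells with no Mki67 UMI, Gmpr was seen in 61.5% of 364 cells with Nanos2 (56.3 to 66.6%), against 48.3% of 584 without (44.2 to 52.4%). Ptgr1 was seen there in 71.4% (66.5 to 76.0%), against 55.1% (51.0 to 59.2%), and Ipp in 65.9% (60.8 to 70.8%), against 47.8% (43.7 to 51.9%). C1ql1 was seen in 67.0%, against 51.7%, Cthrc1 in 69.5%, against 55.5%, and Uchl1 in 94.2%, against 89.6%, where the intervals of Uchl1 overlapped slightly at 91.3 to 96.4% and 86.8 to 91.9%. All 6 shares were thus higher with Nanos2 in cells without Mki67 as well. Among cells with a Mki67 UMI the shares with Nanos2 (241 cells) and without (1170 cells) were 48.5% and 31.3% for Gmpr, 55.2% and 42.8% for Ptgr1, 62.7% and 42.2% for C1ql1, 60.2% and 47.9% for Ipp, 95.02% and 84.6% for Uchl1 and 66.8% and 60.3% for Cthrc1, whose intervals overlapped (60.5 to 72.7% and 57.4 to 63.1%).

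Pairs of the 6 genes shared cells to unequal degrees at E13.5. Ptgr1 and Gmpr were together in 630 cells, against 510 if they were independent, and C1ql1 and Gmpr in 592, against 499. Ptgr1 and C1ql1 were together in 706, against 614. Gmpr was seen in 51.8% of cells with Ptgr1 and 31.4% of cells without it, and Ptgr1 in 63.7% of cells with Gmpr and 42.8% of cells without it. For the pairs with Cthrc1 the observed count was between 1.02 and 1.07 times the independent one, and for those with Uchl1 between 1.02 and 1.05 times, where the high share of Uchl1 leaves little room. Uchl1 was seen in 93.2% of cells with Gmpr, while Gmpr was seen in 44.2% of cells with Uchl1, where Uchl1 was also seen in 84.9% of cells without Gmpr. At E12.5 the observed and independent counts were close for most pairs, such as 35 and 31.8 for Ptgr1 with Uchl1, whereas C1ql1 and Gmpr were together in 51 cells, against 32.3.

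The genes most like each of the 6 across 2359 E13.5 cells were found by Pearson's r of log UMIs over 6861 genes, as a description in sparse counts of 1 library at equal depth. Sycp1 was first for Uchl1 (r = 0.330), Ipp (0.249) and Cthrc1 (0.152). Gmpr was first for Ptgr1 and Ptgr1 for Gmpr (0.267 both ways), and the transcription factor gene Egr4 was first for C1ql1 (0.233) and came after Ptgr1 and Uchl1 for Gmpr (0.234). The keratin gene Krt17 was second for Uchl1 (0.307), the X-linked gene Xlr5c and the piRNA pathway gene Gtsf1 next after Sycp1 for Ipp (0.199 and 0.191), and the X-linked ubiquitin protease gene Usp26 second for Cthrc1 (0.123). The kinase-like gene Stk31 followed Gmpr (0.225) for C1ql1 (0.217). Values of this size are weak, and those of Cthrc1 were the weakest.

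Level by cluster is a description, as the same genes helped to form the clusters. Germ-like cells of E13.5 lay mostly in clusters 1, 3, 5 and 6, and those of E12.5 in clusters 0, 2 and 4. Cluster 1 was led by Nanos2, Snhg11, Egr4 and Ptgr1, cluster 3 by Krt17, cluster 5 by histone genes and the embryonic globin gene Hbb-y and cluster 6 by Tuba3b and Lefty1. All 6 genes were highest in cluster 1 and lowest in cluster 5 among the E13.5 clusters. Ptgr1 stood at 96.1 CPM in cluster 1, 53.0 in cluster 3, 38.1 in cluster 5 and 58.6 in cluster 6, and Gmpr at 73.6, 39.4, 31.0 and 38.2 CPM. C1ql1 stood at 82.8, 48.9, 40.7 and 49.5 CPM and Uchl1 at 295, 221, 161 and 244 CPM in the same clusters. Ipp stood at 78.5, 67.3, 43.7 and 69.1 CPM and Cthrc1 at 77.0, 70.9, 63.6 and 71.2 CPM. As a ratio of highest to lowest cluster, Cthrc1 varied least and Ptgr1 most. The E12.5 clusters 0, 2 and 4 had 2.31, 3.25 and 3.99 CPM of Ptgr1, and for each of the 6 genes every E12.5 cluster was below every E13.5 cluster.

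**Figure D5:**
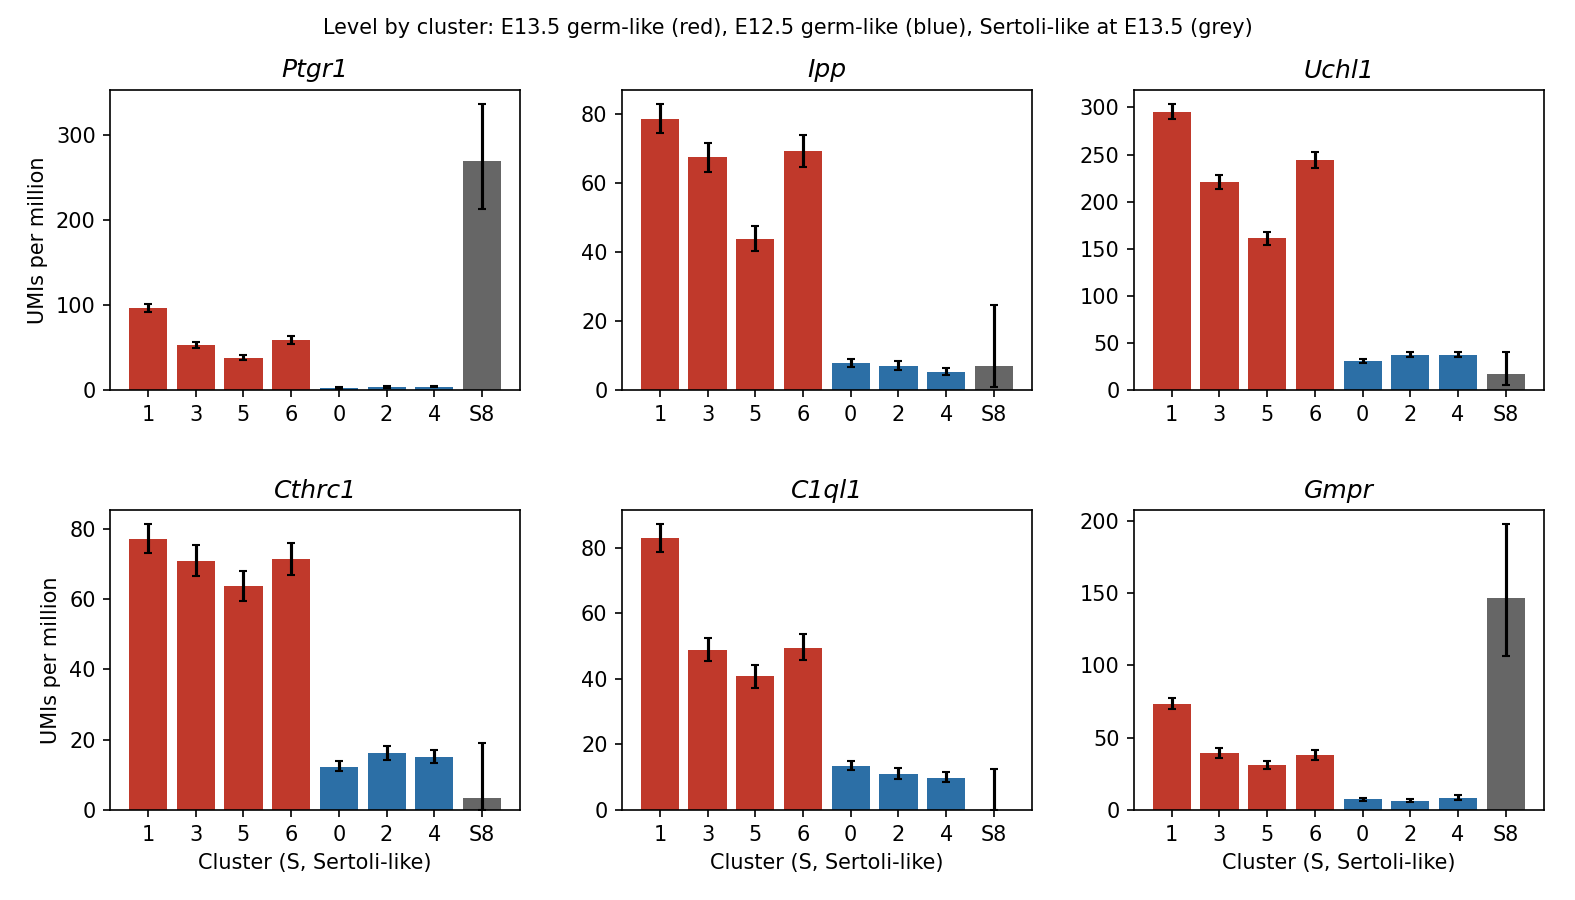
CPM of each gene in the germ-like clusters of E13.5 (red, clusters 1, 3, 5 and 6) and of E12.5 (blue, clusters 0, 2 and 4) and in the Sertoli-like cluster 8 at E13.5 (grey), with 95% Poisson intervals; each panel has its own axis from 0. Ptgr1 and Gmpr are highest in the Sertoli-like cells, at 270 and 147 CPM, whereas the other 4 genes are highest in cluster 1.

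Ptgr1 and Gmpr, alone of the 6, were at a higher level in Sertoli-like cells, the supporting cells of the testis cords, than in germ-like cells. The 25 Sertoli-like cells at E13.5 held 79 UMIs or 270 CPM of Ptgr1 (213 to 336) and 43 UMIs or 147 CPM of Gmpr (106 to 198), against 63.9 and 47.6 CPM in germ-like cells of that library. The 4 Sertoli-like cells at E12.5 held 9 UMIs of Ptgr1 or 123 CPM (56.1 to 233) and 7 of Gmpr or 95.4 CPM (38.4 to 197). Over all 29 Sertoli-like cells there were 2 UMIs of Ipp, 5 of Uchl1, 1 of Cthrc1 and none of C1ql1. The transcripts of Ptgr1 and Gmpr are therefore not particular to germ cells in these data.

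Sertoli RNA in germ-like droplets would bring its markers along in the same ratio. Sertoli markers took 11612 CPM of Sertoli-like cells, and in proportion the 13.51 CPM of them in E13.5 germ-like cells would carry 0.279 CPM of Ptgr1 and 0.159 CPM of Gmpr, against measured levels of 63.9 and 47.6 CPM. At E12.5 the same proportion gives 0.238 CPM of Ptgr1, against 3.06 CPM measured, and 0.135 CPM of Gmpr, against 7.51 CPM. Free RNA of germ cells can be bounded from the Sertoli-like cells for the other 4 genes. At 2000 UMIs per cell Uchl1 was seen in 36.3% of germ-like cells at E13.5 (34.5 to 38.2%) and 6.49% at E12.5 (5.56 to 7.52%), against 1 of 29 Sertoli-like cells (3.45%, 0.0873 to 17.8%), whose median depth was 11418 UMIs. Ipp, Cthrc1 and C1ql1 were seen in 11.2%, 14.3% and 10.47% of germ-like cells at E13.5 and in 1.79%, 3.46% and 1.99% at E12.5, and in none of the 29, which allows up to 11.9%. The E12.5 shares of all 4, and the E13.5 shares of Ipp and C1ql1, thus lay under the limit that so few Sertoli-like cells set at this depth. Summed levels set a closer limit: Sertoli-like cells of both libraries allow up to 31.8 CPM of Uchl1, 19.7 of Ipp, 15.2 of Cthrc1 and 10.1 of C1ql1. The E13.5 germ-like levels of all 4 genes lay above these limits. The 4 Sertoli-like cells of the E12.5 library held no UMI of these genes and allow up to 50.3 CPM of each. The E12.5 germ-like levels of Uchl1 (35.0 CPM), Cthrc1 (14.3 CPM), C1ql1 (11.8 CPM) and Ipp (6.86 CPM) all lay under that limit and cannot be told from background by it. Dazl, a germ marker, stood at 150 CPM in those 4 cells (74.8 to 268, on 11 UMIs), against 802 CPM in E12.5 germ-like cells. In the 25 Sertoli-like cells at E13.5 it stood at 40.9 CPM (21.2 to 71.5), against 1171 CPM in germ-like cells. What part of the E12.5 levels of the 6 genes is free RNA was not tested.

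Most other genes of these pathways that reached 10 CPM lay within 1.5-fold between the libraries. So did most of the 7307 genes at that level. Among the 7307, 8.57% were at least 1.5-fold higher at E13.5 and 9.95% at least 1.5-fold lower. The genes named below 10 CPM are examples, some picked with their values known, and nothing is read from their number. With no minimum level 18.4% of 15161 genes were at least 1.5-fold higher at E13.5, against 8.57% of the 7307 at 10 CPM or more. Of 5 other prostaglandin and leukotriene enzymes at 10 CPM or more, all lay within 1.5-fold between the libraries (median log2 ratio -0.05). The paralog Ptgr2 stood at 16.4 CPM at E13.5 and 14.2 CPM at E12.5, a ratio of 1.15 (1.05 to 1.27), and the prostaglandin E synthase Ptges2 at 25.05 and 36.9 CPM (0.679, 0.635 to 0.725). Under 10 CPM, the prostacyclin synthase Ptgis had 282 UMIs at E13.5 and 88 at E12.5 (3.26, 2.56 to 4.19) and the prostaglandin D synthase Ptgds 65 and 7 (9.44, 4.33 to 24.4), whereas cyclooxygenase 1, Ptgs1, had 32 and 266 (0.122, 0.0820 to 0.177). Ptgds is also one of the Sertoli markers used here and a leading gene of the Sertoli-like cluster. The part of Sertoli RNA in its few UMIs was not tested. Ptgr1 is also a known target of the antioxidant factor Nrf2. Of 9 other Nrf2 targets, none was at least 1.5-fold higher and 3 were at least 1.5-fold lower (9.95% of all genes were), namely the thioredoxin reductase Txnrd1 at 17.4 and 51.6 CPM and the glutathione transferases Gsta4 at 11.7 and 36.2 CPM and Gstm1 at 45.3 and 93.2 CPM, with a median of -0.29. Gclm, of glutathione synthesis, had the highest ratio of these, 1.33 (1.29 to 1.37).

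Of 19 other purine nucleotide enzymes, none was at least 1.5-fold higher at E13.5 and 4 were at least 1.5-fold lower, with a median of -0.29. The paralog Gmpr2 stood at 11.3 CPM at E13.5 and 11.4 CPM at E12.5 (ratio 0.991, 0.890 to 1.10). Impdh2, which runs in the opposite sense from IMP towards GMP, stood at 481 and 426 CPM (1.13, 1.11 to 1.15). The salvage enzymes Pnp at 6.99 and 18.0 CPM (0.388, 0.346 to 0.435) and Aprt at 114 and 191 CPM (0.597, 0.579 to 0.615), the first enzyme of purine synthesis Ppat at 47.0 and 73.5 CPM (0.640) and Impdh1 at 9.97 and 17.6 CPM (0.565) were the 4 lower ones. Over all genes 8.57% were at least 1.5-fold higher and 9.95% at least 1.5-fold lower. Prps1, which makes the activated ribose, was under 10 CPM in both libraries, with 417 UMIs at E13.5 and 82 at E12.5 (5.17, 4.07 to 6.64).

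Of 12 other genes of ubiquitin recycling, the deubiquitinase Otub1 alone was at least 1.5-fold higher, at 70.9 CPM at E13.5 and 43.2 CPM at E12.5 (1.64, 1.56 to 1.73), while not a single gene was lower by that much (median 0.03). Among all 7307 genes 8.57% were higher and 9.95% lower by that much. Nothing is therefore read from the counts of this family and of those that follow. The closest relative of Uchl1, Uchl3, stood at 243 and 340 CPM (0.713, 0.698 to 0.729) and Uchl5, of the proteasome, at 59.8 and 82.2 CPM (0.728, 0.697 to 0.760). At E13.5 the levels of Uchl1 (235 CPM) and Uchl3 (243 CPM) were therefore close, whereas at E12.5 Uchl1 stood at 35.0 CPM. Of 13 other kelch and BTB genes, none was at least 1.5-fold higher and 2 were lower, Klhl13 at 5.09 and 18.1 CPM and Klhl22 at 14.5 and 25.5 CPM, with a median of 0.22 and the highest ratio in Klhl24 (1.44, 1.35 to 1.53). Under 10 CPM, Klhl5 had 188 UMIs at E13.5 and 77 at E12.5 (2.48, 1.89 to 3.28) and Klhl3 had 33 and 3 (11.2, 3.51 to 57.001). All 7 other genes of Wnt planar polarity at 10 CPM, the pathway of Cthrc1, lay within 1.5-fold (median 0.14). C1ql1 was the one member of its family list to reach 10 CPM. Its relative C1ql3 had 26 UMIs at E13.5 and 6 at E12.5, C1qtnf4 had 476 and 173, and the receptor Adgrb3 had 16 and 30, so the ligand's transcript outnumbered that of its known receptor.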

How the data were processed

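UMI counts per gene and barcode were deposited by the authors as 1 table per stage, raw and not normalised. Per the labels' protocols, libraries used 10x v2 chemistry. Per the submitters' processing notes, the reads went through Cell Ranger (version not stated) and mm10, which is GRCm38; the annotation is not stated in the sources used here. The tables held 59842242 UMIs in 2992 barcodes at E13.5 and 60383440 in 2847 at E12.5.

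A barcode was kept if it held at least 500 genes and less than 10% mitochondrial UMIs, which left 2670 at E13.5 and 2621 at E12.5. They were scaled to 10000 UMIs, put on a log scale and clustered as 1 set on 30 principal components of 2000 variable genes with 15 neighbours and a resolution of 0.5 (scanpy 1.11.5, leidenalg 0.10.2). Clusters were named from fixed marker lists; a low-UMI cluster of 33 barcodes at E13.5 and 88 at E12.5 stayed unnamed, and 1 germ-cluster barcode with 0.5% or more of macrophage or erythroid marker UMIs was left out. Scrublet called 27 doublets at E13.5 and 65 at E12.5, kept except in an alternative. Levels are CPM of summed counts with exact Poisson 95% intervals, ratios have exact conditional binomial intervals and shares exact binomial ones. For shares, each cell was thinned at random, without replacement, to 14000 UMIs. No ratio was computed where either stage had fewer than 3 UMIs of the gene. The interval scripts were tested on simulated data. Named genes were the 6, their paralogs, the ends of each pathway list, Nanos2, Rhox9, Sycp1 and Mki67, and by rule the 3 genes most like each of the 6; other list members named here were chosen after their values were seen. The 6 genes and the lists were chosen with earlier results of these data known. Alternatives included TMM factors (edgeR 4.0.16). Protein sequences were not analysed here.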

Additional observations from a re-analysis of the deposited data

Results flagged for a closer look

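Barcodes that failed the cell filter enter none of the comparisons, and they held more than 3 UMIs of some of the genes. In the 322 such barcodes at E13.5 the levels were 185 CPM for Uchl1 (152 to 223), 59.0 CPM for Cthrc1, 52.2 CPM for Ptgr1, 47.2 CPM for Ipp, 42.1 CPM for C1ql1 and 30.3 CPM for Gmpr. In the 226 at E12.5 they were 34.1 CPM for Uchl1 (15.6 to 64.7), on 9 UMIs, and 15.2 CPM each for Ipp and C1ql1, on 4 UMIs each.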

How the results depend on the processing

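No paired analysis was possible because there was 1 library per stage and no test. All 6 genes stayed at least 1.5-fold higher at E13.5 under every alternative run, with median log2 ratios between 2.64 and 2.75 (2.71 as reported). Of 66 single log2 ratios, 1 left its counting interval, that of C1ql1 under the stricter filter (2000 genes, 5% mitochondrial UMIs), at 2.11 against 2.29. Shares moved more often, in these counts: 14 moved and 22 did not at E13.5, 12 and 24 at E12.5, 24 and 18 for the E12.5 share as a percent of the E13.5 share, and 15 and 33 for the difference with and without Nanos2. The number of all genes at least 1.5-fold higher, 626 as reported, was 946 when mitochondrial genes, those of ribosomal proteins and the top 50 by abundance were left out of the totals, 2797 without any minimum level and 135 with 50 CPM as the minimum. The first raised the genes tested to 8496 and the median log2 ratio of all genes to 0.03; the other 2 set the minimum itself. The median difference in share between the stages, 43.2 percentage points as reported, was 10.4 when cells were thinned to 2000 UMIs, as fewer UMIs were drawn. The median difference in share with and without Nanos2, 16.9 points, was 6.67 at 2000 UMIs and 22.5 with 2 or more Nanos2 UMIs, and all 6 shares were higher with Nanos2 in each alternative run. At 2000 UMIs the intervals with and without Nanos2 overlapped for Ptgr1 (10.504 to 23.6% and 11.1 to 13.8%), Ipp (8.69 to 21.1% and 10.8 to 13.47%) and Cthrc1 (11.1 to 24.5% and 11.3 to 13.9%), and with 2 or more Nanos2 UMIs they did so for Cthrc1. The median share at E12.5 as a percent of that at E13.5, 25.2% as reported, was 19.3% at 2000 UMIs, 32.1% with no thinning and 6.81% when a gene counted from 2 UMIs. Of the 15 pairs in the order of appearance, between 13 and 15 kept their order. Leaving out the 24 barcode sequences found in both tables was chosen after seeing the data and moved no median out of its interval. The share at E12.5 as a percent of that at E13.5 then became 8.24% for Ptgr1 (7.46% as reported) and 16.8% for Ipp (18.8%). That setting also drew the UMIs of the remaining cells anew. A second random draw with no cell left out gave 8.52% for Ptgr1 and 18.6% for Ipp. The scarcity of Sertoli-like cells at E12.5, 4 in all, limits how far low shares there can be told from free RNA.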

Other observations

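Small sets of E12.5 cells carried several of the 6 transcripts, and their values are given without a test. How many cells would carry several if the transcripts were spread independently was not computed. Of the 2529 E12.5 germ-like cells, 2514 remained without the barcode sequences found in both tables. Clusters 1, 3 and 6, mostly of E13.5 cells, held 5, 4 and 1 E12.5 barcodes. Whether any of these are among the cells described here was not tested. Nanos2 was seen in 15 of 2342 E12.5 cells at 14000 UMIs. Of these, 7 carried C1ql1 (46.7%, 21.3 to 73.4%), against 14.1% of the other cells (12.7 to 15.6%), and 9 carried Uchl1 (60.0%, 32.3 to 83.7%), against 35.2% (33.3 to 37.2%). Cthrc1 was carried by 6 of the 15, Ptgr1 and Gmpr by 3 each and Ipp by none, which allows up to 21.8%.

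Rhox9 was missing in 25 of the E12.5 cells. Uchl1 was seen in 35.0% of the 2317 E12.5 cells with Rhox9 (33.1 to 37.0%), against 68.0% of the 25 without (46.5 to 85.0%). C1ql1 was seen in 14.2% with Rhox9 (12.8 to 15.6%), against 32.0% without (14.95 to 53.5%), whereas Ipp was seen in 9.80% and Gmpr in 9.62% with Rhox9, and each in 2 of the 25 without. Of the 14 E12.5 cells with 4 of the 6 transcripts, 92.9% carried Gmpr, 85.7% C1ql1, 85.7% Uchl1, 57.1% Cthrc1, 42.9% Ptgr1 and 35.7% Ipp, and all 14 carried Rhox9.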
